A study of Mus musculus with 9 samples.

Results

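The genes described here are those whose mouse symbols mark cytosolic ribosomal proteins. Members were taken by symbol: Rpl or Rps followed by a digit, or Rpsa, Rplp0, Rplp1, and Rplp2, leaving out the Rps6k kinases and symbols that contain -ps. Each needed a probe set that the platform annotation assigns to that gene and no other, and the brightest such probe set stood for the gene. This gave 63 of 19937 genes. They comprised 33 genes of the large subunit, 21 of the small subunit, 6 paralogs of such genes, Rpl32l, Rps23rg1, and Rps19bp1, which by its name encodes a binding partner of a ribosomal protein and not a subunit.

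Ly6Chi CD115+ cells were sorted from steady-state bone marrow (BM) of C57Bl/6 mice aged 8 weeks by Flt3 and CD11c: R1 lacked both (Flt3-CD11c-), R2 had Flt3 alone (Flt3+CD11c-), and R3 had both (Flt3+CD11c+). The study calls R1 and R2 monocytes and R3 precursors of dendritic cells (pre-DCs). No mouse carried a listed allele or received a treatment. Each population had 3 Affymetrix whole-transcript arrays, 1 for each of 3 label dates, and replicates 1 to 3 stand for these dates.

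The ribosome translates mRNA into protein. Its small subunit reads the message and its large subunit joins the amino acids, and each is built from ribosomal RNA and many small proteins that are needed in matching amounts. Growing and dividing cells make large quantities of ribosomal protein mRNA, and its translation is controlled together through a pyrimidine tract at the 5′ end, the TOP motif, downstream of the kinase mTOR. Myc is a known activator of ribosome production.

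The bases around annotated transcription starts are shown first because this tract is the feature that ribosomal protein mRNAs are best known to share. Sequences are from RefSeq promoters of GRCm38.p6, 15 bases on each side of the start. Capitals mark a C at the start and the unbroken run of C and T that begins with it. The first 5 genes begin with such a run, and Rpl5 and Rpl39l, described below for their values, do not.
Rps6, chr4:86857353-86857382, minus strand: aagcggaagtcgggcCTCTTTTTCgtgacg
Rpl28, chr7:4792950-4792979, plus strand: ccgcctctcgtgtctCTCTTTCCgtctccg
Rps18, chr17:33955651-33955680, minus strand: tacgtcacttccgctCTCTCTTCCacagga
Rpl38, chr11:114668565-114668594, plus strand: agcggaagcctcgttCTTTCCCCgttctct
Rpl14, chr9:120571502-120571531, plus strand: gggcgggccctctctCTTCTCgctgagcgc
Rpl5, chr5:107900513-107900542, plus strand: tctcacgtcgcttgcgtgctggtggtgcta
Rpl39l, chr16:10170213-10170242, plus strand: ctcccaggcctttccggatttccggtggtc

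Promoters were matched by symbol for 51 of the 63 genes. A C at an annotated start followed by at least 4 C or T was found in 10 of the 51 (19.6%), and in 3.01% of all 27025 genes with a promoter. The letters CCGGAAG, on either strand within 250 bases before to 50 bases after a start, stood in 19 of 51 members (37.3%) and in 9.93% of all genes. The letters TATAAA, on the coding strand 40 to 20 bases before the start, stood in 0 of 51 members and in 2.25% of all genes. These matches were searched after the sequences had been seen, they describe letters only, and an annotated start can lie some bases from the one used.

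Most of the 63 genes were among the brightest on the array, and most were nearly level across the populations. Brightness depends on the probes, so it does not rank mRNA levels between genes. Of the 158 genes with a mean log2 intensity over 12, 41 were members. The highest member mean was 13.86, and the highest value on any array was 14.28. Whether signals near that level were saturated was not tested. The median of the members on an array lay between 12.69 and 12.81 on the log2 scale. Their share of the summed intensity of all genes was 5.57% ± 0.12 in R1, 5.75% ± 0.09 in R2, and 5.75% ± 0.06 in R3 (SD, n = 3). The range in R1 (5.47% to 5.70%) overlapped that in R2 (5.69% to 5.85%) and that in R3 (5.68% to 5.81%). For each array, 1 ng of RNA was amplified into cDNA and labelled. These values are therefore relative to the RNA of the sample and give no amount of ribosomal protein mRNA per cell. In bulk samples, fewer cells of a type and less RNA per cell cannot be told apart.

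None of the 63 members passed the test in any comparison (limma, Benjamini-Hochberg over 19937 genes, adjusted p under 0.05). In R3 against R2, 0 of 63 were called, where 9.55% of all genes were. In R3 against R1, 0 of 63 were called beside 13.5% of all genes. In R2 against R1, where only 0.391% of all genes were called, 0 of 63 is no more than the background share. The smallest adjusted p among members was 0.154, 0.128, and 0.382 in these 3 comparisons. At an unadjusted p under 0.05, limma had 3 members in R3 against R2 (4.76%, beside 19.4% of all genes), 1 in R3 against R1 (1.59%, beside 24.1%), and 3 in R2 against R1 (4.76%, beside 10.7%). The methods' t-test gave 8, 7, and 4 members at that level, where 17.4%, 16.8%, and 7.47% of all genes passed. After Benjamini-Hochberg adjustment it called 2 members in R3 against R2 (beside 4.48% of all genes), 0 in R3 against R1 (beside 3.3%), and 0 in R2 against R1 (beside 0.00502%). The labels do not say whether the 3 arrays of a population came from separate mice, so these p-values measure the spread between arrays, which may be technical.

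The other 117 genes with a mean log2 intensity over 12 are given beside the 41 members of that brightness. Of these 117, 15.4% were called in R3 against R2, 21.4% in R3 against R1, and 0% in R2 against R1. The median absolute log2 difference of these 117 genes was 0.10 in R3 against R2, 0.12 in R3 against R1, and 0.07 in R2 against R1. For all 63 members, the dimmer ones included, it was 0.05, 0.04, and 0.04. The differences of the 41 bright members lay between -0.12 and 0.13 over the 3 comparisons. This brightness limit was chosen after the values had been seen.

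**Figure D1:**
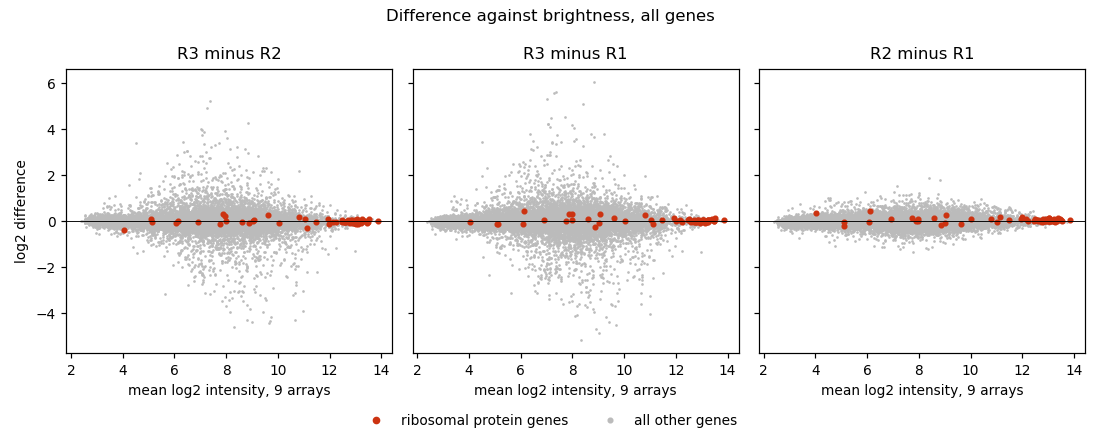
Log2 difference (y axis) against mean log2 intensity over 9 arrays (x axis) for 19937 genes in each comparison, with the 63 ribosomal protein genes in red. Members lie between -0.40 and 0.43, and the 41 with a mean log2 intensity over 12 lie between -0.12 and 0.13. The ends of the wider range belong to dimmer members. Other genes spread over several log2 units in both comparisons with R3.

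A missed threshold does not show that levels were equal, so the intervals of the differences are given. The 95% interval lay within 0.5 log2 units of 0 for 57 of 63 members in R3 against R2, for 57 in R3 against R1, and for 60 in R2 against R1. Over all genes, 73.7%, 70.1%, and 80% had such an interval. For the 41 members with a mean over 12, all intervals lay within that bound, and the widest reach over the 3 comparisons was from -0.38 to 0.39. The widest interval among all members was that of Rpl12, a dim probe set, which reached 1.09 in R2 against R1.

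**Figure D2:**
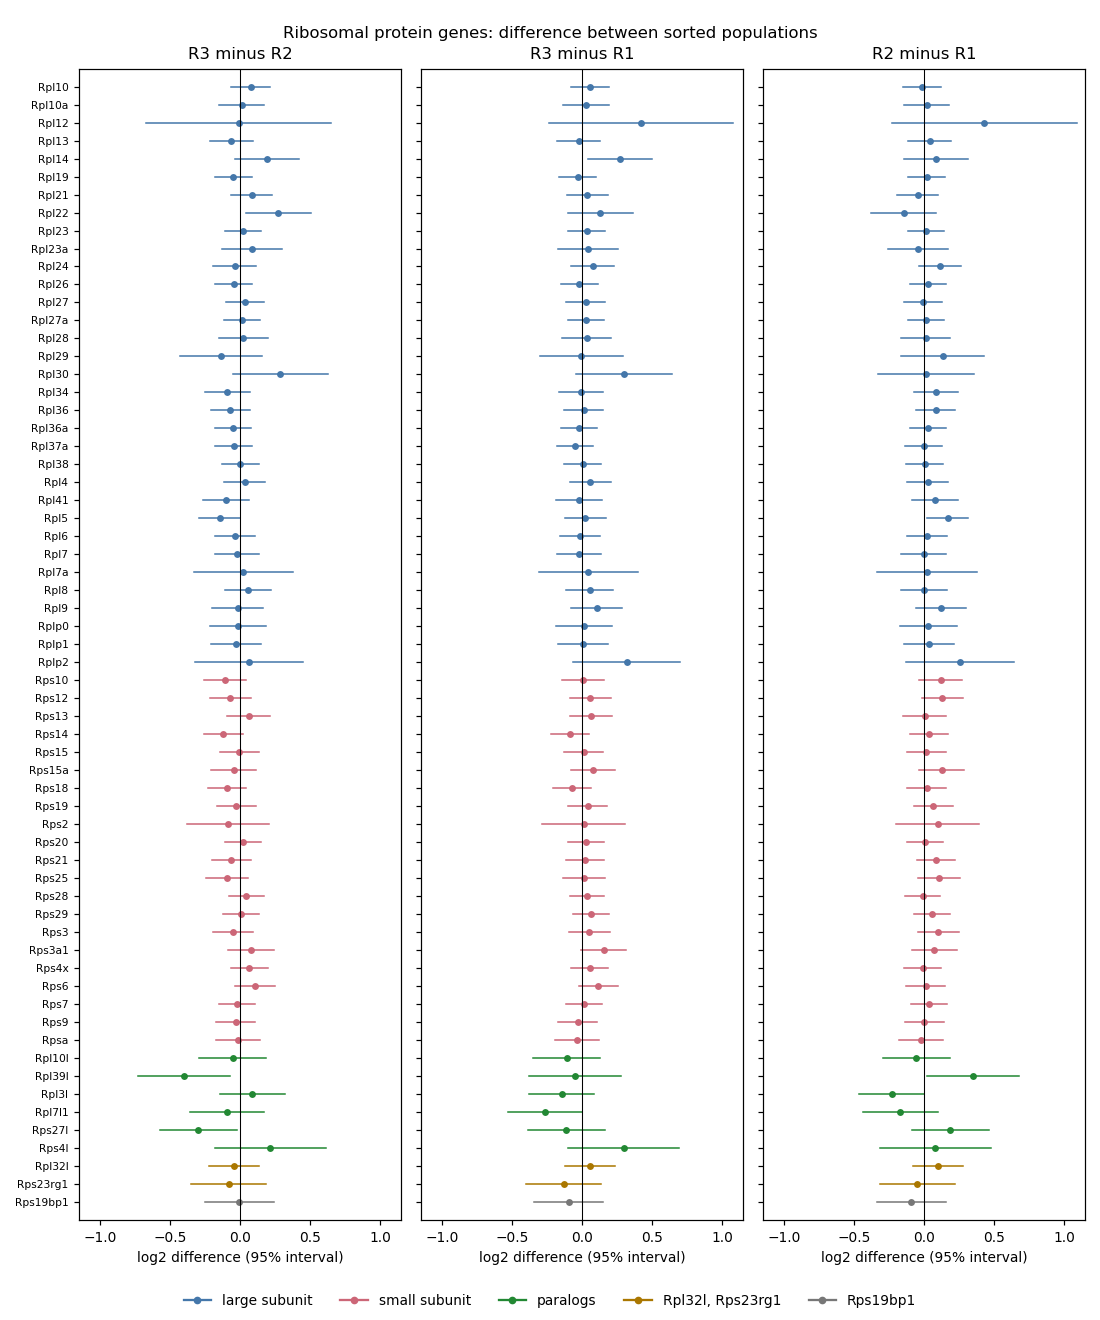
Log2 difference (point) with its 95% interval (line) for the 63 members, in rows by class, for R3 minus R2, R3 minus R1, and R2 minus R1. Most points sit within 0.1 of 0, and the widest intervals belong to Rpl12, Rps4l, Rplp2, Rpl7a, Rpl30, and Rpl39l.

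The large subunit showed no common direction between R3 and R2. Its 33 genes had a median log2 difference of -0.01 in R3 against R2, with 16 means higher and 17 lower. The median was 0.03 in R3 against R1 (23 higher, 10 lower) and 0.02 in R2 against R1 (25 higher, 8 lower). The brightest of its probe sets was that of Rplp1, which with Rplp0 and Rplp2 encodes the stalk that recruits translation factors. Rplp1 measured 13.35, 13.47, and 13.59 in R1, 13.47, 13.45, and 13.60 in R2, and 13.47, 13.45, and 13.51 in R3 on the log2 scale. All 3 populations overlapped, and R3 minus R1 was 0.01 (95% interval -0.17 to 0.18). Rplp0 differed by 0.01 between R3 and R1 (-0.19 to 0.21). The probe set of Rplp2 was dimmer, with means of 8.88 ± 0.31, 9.13 ± 0.12, and 9.19 ± 0.26 in R1, R2, and R3 (SD, n = 3), and its R3 minus R1 difference of 0.32 had an interval from -0.07 to 0.70.

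Rpl38, whose protein is known to affect which mRNAs a ribosome translates, had among the smallest differences. It measured 13.06, 12.97, and 13.06 in R1, 13.04, 13.02, and 13.04 in R2, and 13.04, 13.03, and 13.04 in R3. Its R3 minus R1 difference was 0.01 (-0.13 to 0.14).

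The large-subunit genes nearest to a call were Rpl14, Rpl22, and Rpl5, chosen here after their values had been seen. Rpl14 measured 10.53, 10.64, and 10.90 in R1, 10.72, 10.69, and 10.90 in R2, and 11.0, 10.95, and 10.93 in R3. The 3 R3 arrays were above all others, and those of R1 and R2 overlapped. R3 minus R1 was 0.27 ± 0.10 (SE; adjusted p = 0.128, limma), a ratio of 1.21. Without R1 replicate 3, the highest of the R1 arrays, the difference was 0.38 and passed (adjusted p = 0.0265, limma). Without R1 replicate 1, the lowest of them, it was 0.19 and did not pass (adjusted p = 0.277, limma).

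Rpl22, whose loss is known to impair lymphocyte development, measured 9.54, 9.64, and 9.67 in R1, 9.61, 9.58, and 9.23 in R2, and 9.73, 9.78, and 9.73 in R3. R3 was above both other populations on every array, and R2 replicate 3 was the lowest of the 9. R3 minus R2 was 0.27 ± 0.10 (SE; adjusted p = 0.165, limma). Without R2 replicate 3 it was 0.15.

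Rpl5, which with Rpl11 and 5S rRNA can bind Mdm2 and so link ribosome assembly to p53, measured 11.83, 11.97, and 11.97 in R1, 12.08, 12.14, and 12.05 in R2, and 11.93, 11.97, and 11.94 in R3. R2 was above the others on all 3 arrays, while R1 and R3 overlapped. R2 minus R1 was 0.17 ± 0.06 (SE; adjusted p = 0.382, limma), and R3 minus R2 was -0.14 ± 0.06 (SE; adjusted p = 0.265, limma).

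The small subunit likewise had medians close to 0. Its 21 genes had a median log2 difference of -0.03 in R3 against R2 (7 higher, 14 lower), 0.03 in R3 against R1 (17 higher, 4 lower), and 0.03 in R2 against R1 (17 higher, 4 lower). Rps29 had the brightest probe set of all members, at 13.85, 13.81, and 13.79 in R1, 13.88, 13.85, and 13.91 in R2, and 13.88, 13.88, and 13.88 in R3. R1 reached as high as the lowest R2 array, and R3 minus R1 was 0.06 (-0.07 to 0.19).

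Rps6 encodes the subunit protein phosphorylated by the S6 kinases downstream of mTOR, and its start carries the run of C and T printed above. It measured 13.48, 13.49, and 13.45 in R1, 13.50, 13.43, and 13.52 in R2, and 13.55, 13.65, and 13.57 in R3. All R3 arrays were above all R1 and R2 arrays, which overlapped. The differences were small, 0.12 ± 0.06 from R1 (SE; adjusted p = 0.314, limma) and 0.11 ± 0.06 from R2 (adjusted p = 0.432, limma).

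The 2 members that the methods' t-test called after adjustment in R3 against R2 were Rpl10 and Rps28. Rps28 measured 13.23, 13.23, and 13.22 in R2 and 13.27, 13.27, and 13.27 in R3. Rpl10 measured 13.04, 13.02, and 13.03 in R2 and 13.10, 13.09, and 13.11 in R3. Both had replicate SDs of 0.01 or less in R2 and R3. Their differences were 0.04 and 0.07 on the log2 scale, ratios of 1.03 and 1.05, with adjusted p = 0.786 and 0.622 in limma, which shares information on the spread between genes.

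The 6 paralogs included the 3 dimmest members. Rpl39l, a paralog of Rpl39 known from testis, had the dimmest probe set of the members. It measured 4.003, 3.77, and 4.06 in R1, 4.31, 3.98, and 4.58 in R2, and 3.78, 3.90, and 3.998 in R3. R2 reached the highest values but overlapped R1 and R3. R3 minus R2 was -0.40 ± 0.15 (SE; adjusted p = 0.154, limma) and R2 minus R1 was 0.35 ± 0.15 (adjusted p = 0.442, limma). Without R2 replicate 2, the lowest R2 array, R3 minus R2 was -0.55 and passed (adjusted p = 0.0366, limma). Without R2 replicate 3, the highest R2 array, it was -0.26 and did not pass (adjusted p = 0.423, limma).

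Rps27l, a p53-inducible paralog of Rps27, was the brightest paralog. It measured 11.25, 10.93, and 11.13 in R1, 11.25, 11.12, and 11.51 in R2, and 10.87, 11.10, and 11.01 in R3. All R2 arrays were above all R3 arrays. R3 minus R2 was -0.30 ± 0.12 (SE; adjusted p = 0.208, limma).

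Rpl3l, the paralog of Rpl3 found in heart and skeletal muscle, and Rpl10l, the paralog of Rpl10 found in testis, were the next dimmest members, with means over the 9 arrays of 5.10 and 5.12. R2 minus R1 was -0.23 ± 0.10 for Rpl3l (SE; adjusted p = 0.468, limma) and -0.06 for Rpl10l. Rpl7l1 differed by -0.26 between R3 and R1 (adjusted p = 0.211, limma) and Rps4l by 0.30. Rps19bp1 differed by -0.10 between R3 and R1.

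The direction of the members as a whole was read on each date. In R3 against R2, 15 members were higher on all 3 dates (23.8%, beside 19.5% of all genes) and 22 lower (34.9%, beside 20.1%). In R3 against R1, 15 were higher (23.8%, beside 17%) and 5 lower (7.94%, beside 20.6%). In R2 against R1, 21 were higher (33.3%, beside 11%) and 2 lower (3.17%, beside 16.2%). R1 thus held lower values of the members than R2 more often than higher ones. These comparisons share their arrays, and the shares are descriptions.

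The median log2 difference of the members was -0.02 in R3 against R2, 0.02 in R3 against R1, and 0.03 in R2 against R1. The medians of all genes were -0.01, -0.02, and -0.02. When each array was centred on its median over all probe sets, the medians of the members changed sign, to 0.03, -0.01, and -0.06, beside 0.04, -0.05, and -0.10 for all genes. R1 replicate 1 held the lowest of the 9 values for 29 of 63 members, and without it the median in R2 against R1 was 0.01.

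**Figure D3:**
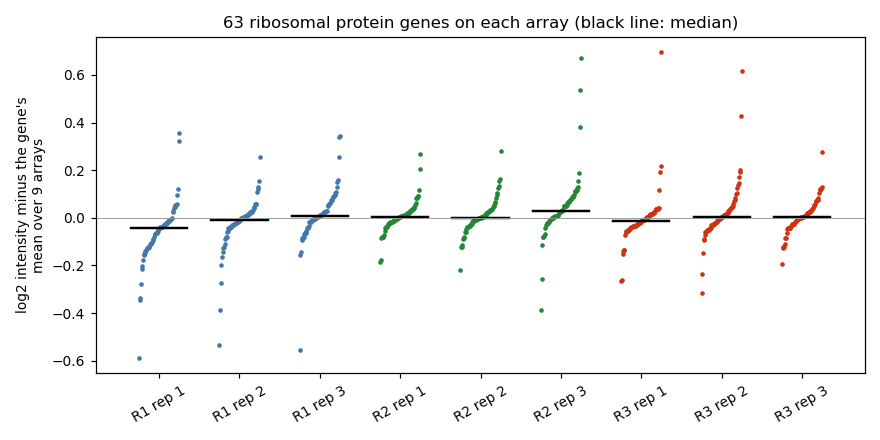
Log2 intensity of each of the 63 members minus its own mean over 9 arrays (y axis), for each array (x axis), coloured by population, with the median as a black line. The medians lie between -0.04 and 0.03, and R1 replicate 1 is the lowest.

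The 10 members with a run of C and T at an annotated start had median log2 differences of -0.02 in R3 against R2, 0.04 in R3 against R1, and 0.08 in R2 against R1. The 41 matched genes without one had -0.03, 0.01, and 0.02. No test was run on this split.

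Many ribosomal protein genes have processed copies in the genome, and probe sets can share signal with them. Whether the probe sets used for the members, Rps6 and Rpl5 included, measure the gene or such a copy was not tested. In the annotation, 195 probe sets named a member and no other gene, and 209 named one beside other genes. Of the 77 core genes listed for the subunits, 23 had no probe set of their own and were not members. For 16 of them, Rpl3, Rpl11, and Rps24 among these, a probe set shared with other symbols was measured, and the brightest was called in 0 cases. These differed by -0.08 to 0.08 in R3 against R2, by -0.03 to 0.13 in R3 against R1, and by -0.02 to 0.18 in R2 against R1. Fau, which encodes a small-subunit protein under another name, differed by -0.02 in R3 against R2 and -0.07 in R3 against R1.

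Of the 38 members with several probe sets of their own, the differences had both signs in 20 genes in R3 against R2, in 23 in R3 against R1, and in 18 in R2 against R1. In a fit over all 34760 probe sets, 4.78% were called in R3 against R2, 7.27% in R3 against R1, and 0% in R2 against R1. Of the 195 probe sets, 2 were called in each comparison with R3, and both are annotated to Rpl21, a large-subunit gene with 9 probe sets. Of the 209 shared ones, 1 was called in each. None was called in R2 against R1. There, 14 of the 195 and 27 of the 209 had an unadjusted p under 0.05 (limma). In the fit over genes, 10.7% of all genes did.

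The brightest Rpl21 probe set, which stood for the gene, was level. It measured 10.99, 11.08, and 11.04 in R1, 10.95, 10.997, and 11.02 in R2, and 11.03, 11.16, and 11.03 in R3. Probe set 10579839, also annotated to Rpl21 alone, fell in R3. It measured 10.29, 10.26, and 10.13 in R1, 9.98, 10.05, and 10.01 in R2, and 7.29, 7.71, and 7.85 in R3. The R3 arrays lay far below all others. R3 minus R2 was -2.39 ± 0.14 (SE; adjusted p = 8.7e-05, limma), 5.25-fold lower, and R3 minus R1 was -2.61 ± 0.14 (adjusted p = 4.2e-05, limma).

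Probe set 10395737 moved the other way. It measured 5.60, 5.58, and 5.81 in R1, 6.02, 5.71, and 6.80 in R2, and 7.18, 7.42, and 7.53 in R3. R3 minus R1 was 1.72 ± 0.26 (SE; adjusted p = 0.00645, limma). R3 minus R2 was 1.20 ± 0.26 (adjusted p = 0.0396, limma), and this call was lost without any single array other than R2 replicate 3: without R1 replicate 1 (adjusted p = 0.0592), R1 replicate 2 (0.0709), R1 replicate 3 (0.0653), R2 replicate 1 (0.144), R2 replicate 2 (0.102), R3 replicate 1 (0.0815), R3 replicate 2 (0.115), or R3 replicate 3 (0.117, all limma). The other 6 probe sets of Rpl21 were not called. Which transcripts these 3 probe sets measure was not tested.

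**Figure D4:**
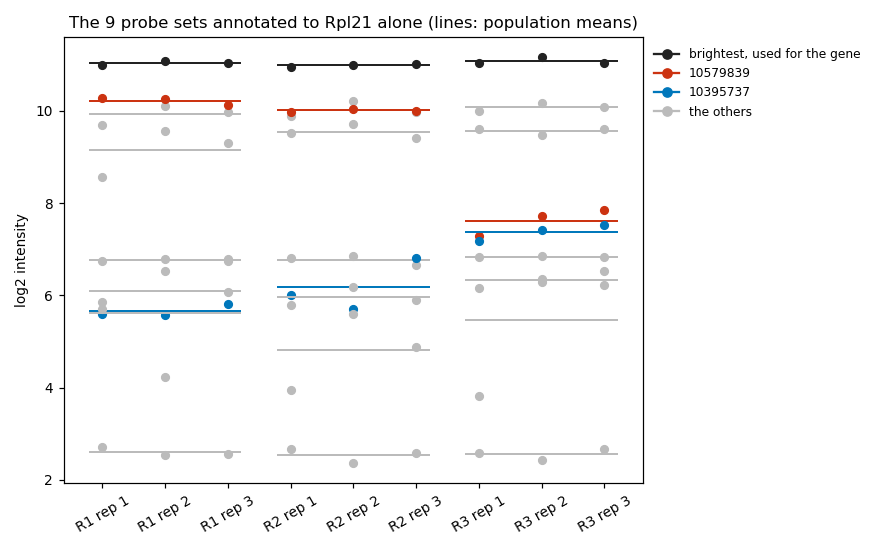
Log2 intensity (y axis) of the 9 probe sets annotated to Rpl21 alone on each array (x axis), with lines at the population means. The brightest (black) stays near 11 in all populations, 10579839 (red) is near 10 in R1 and R2 and below 8 in R3, and 10395737 (blue) is higher in R3.

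The shared probe set that was called, 10563114, names Rpl13a and Snord32a, a small nucleolar RNA that lies in an intron of Rpl13a and guides methylation of ribosomal RNA. It measured 7.48, 7.24, and 7.63 in R1, 7.13, 7.16, and 7.46 in R2, and 8.44, 8.16, and 8.39 in R3. All R3 arrays were higher, by 1.08 ± 0.14 over R2 (SE; adjusted p = 0.00373, limma) and by 0.88 ± 0.14 over R1 (adjusted p = 0.00747, limma). Both calls were lost without replicate 1 (adjusted p = 0.127 and 0.121) or replicate 2 (0.0639 and 0.0936, limma) of all populations. The brightest shared probe set of Rpl13a differed by 0.03 and 0.13 and was not called.

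Genes that act with the ribosomal proteins were read from lists. The ribosomal proteins of mitochondria, which are encoded in the nucleus and build a separate ribosome, were lower in R3 more often than higher. Of 77 measured, 7 fell and 1 rose in R3 against R2, and 10.4% were called, near the 9.55% of all genes. In R3 against R1, 8 fell and 1 rose, and 11.7% were called, near the 13.5% of all genes. In R2 against R1, 0 were called (beside 0.391%), 6 had an unadjusted p under 0.05 (limma), and the methods' t-test called 0. Their median log2 difference was -0.17 in R3 against R2 and -0.20 in R3 against R1, with 69 and 65 of the 77 means below 0, where the cytosolic members had -0.02 and 0.02 and all genes -0.01 and -0.02. By date, replicates 1 to 3, the mitochondrial medians were -0.11, -0.17, and -0.22 in R3 against R2. They were -0.045, -0.17, and -0.32 in R3 against R1. On all 3 dates, 40 were lower and 4 higher than in R2, beside 20.1% and 19.5% of all genes. Against R1, 34 were lower and 3 higher, beside 20.6% and 17% of all genes. The difference between the mitochondrial and cytosolic sets was not tested. Mrpl48 measured 9.57, 9.41, and 9.36 in R2 and 8.73, 8.66, and 8.97 in R3, a difference of -0.67 ± 0.10 (SE; adjusted p = 0.00263, limma). R3 minus R1 of Mrpl22 was -0.94 ± 0.19 (SE; adjusted p = 0.00901, limma).

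Of 22 growth regulators measured, 3 rose in R3 against R2 (13.6%, beside 9.55% of all genes). In R3 against R1, 4 rose and 4 fell (36.4%, beside 13.5% of all genes). Myc measured 9.10, 8.91, and 9.30 in R1, 9.36, 9.20, and 9.13 in R2, and 10.16, 10.23, and 10.47 in R3. All R3 arrays were above the rest, by 1.05 ± 0.12 over R2 (SE; adjusted p = 0.000493, limma) and 1.18 ± 0.12 over R1 (adjusted p = 0.000192, limma). Mycl, a relative of Myc used by dendritic cells, rose by 1.43 over R2 and 1.47 over R1. Mxd3 rose by 0.45 over R2 and 0.92 over R1 (adjusted p = 0.00816 and 9.0e-05, limma). Mtor was called over R1 alone, by 0.41 (adjusted p = 0.0414, limma). The genes that fell in R3 against R1 were Mxi1 (-0.58), Eif4ebp1 (-0.55), Deptor (-0.52), and Mxd4 (-0.49), with adjusted p = 0.0437, 0.0231, 0.0178, and 0.0225 (limma).

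Of 44 translation factors, 1 rose in R3 against R2 (2.27%, beside 9.55% of all genes). In R3 against R1, 2 rose and 2 fell (9.09%, beside 13.5% of all genes). The largest change was in Eef2k, the kinase that inhibits elongation factor eEF2, which measured 6.10, 6.12, and 6.08 in R1, 6.48, 6.36, and 6.53 in R2, and 7.62, 7.83, and 7.94 in R3. It rose by 1.34 ± 0.09 over R2 (SE; adjusted p = 1.8e-05, limma). Of 73 ribosome assembly genes, 2 fell in R3 against R2 (2.74%), and 2 rose and 3 fell in R3 against R1 (6.85%). In R2 against R1, limma called 0 of the growth regulators, translation factors, and assembly genes, with 4, 4, and 3 at an unadjusted p under 0.05 and 0 called by the methods' t-test. Of 3 measured snoRNA host genes, 1 rose in R3 against R1 (33.3%, beside 13.5% of all genes).

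Cell cycle genes were higher in R2 and R3 than in R1, with median log2 differences of 0.48 and 0.43, but unevenly so. The differences ran from 0.004 to 0.74 in R2 against R1 and from 0.003 to 0.81 in R3 against R1. Their summed intensity was 21962, 27598, and 29261 on R1 replicates 1 to 3. It was 34347 to 35165 in R2 and 33465 to 35587 in R3. R1 replicate 1 again held the lowest value. Of 19 measured, 2 rose in R2 against R1, where 0.391% of all genes were called. They were Mki67 (by 0.63) and Aurkb (by 0.60), with adjusted p = 0.0164 and 0.0281 (limma). Against R1, 6 of the 19 rose in R3 (beside 13.5% of all genes). Between R3 and R2, 0 were called (beside 9.55% of all genes), 0 also at an unadjusted p under 0.05 and by the methods' t-test. The part of the cell cycle genes in the values of the members was not tested.

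**Figure D5:**
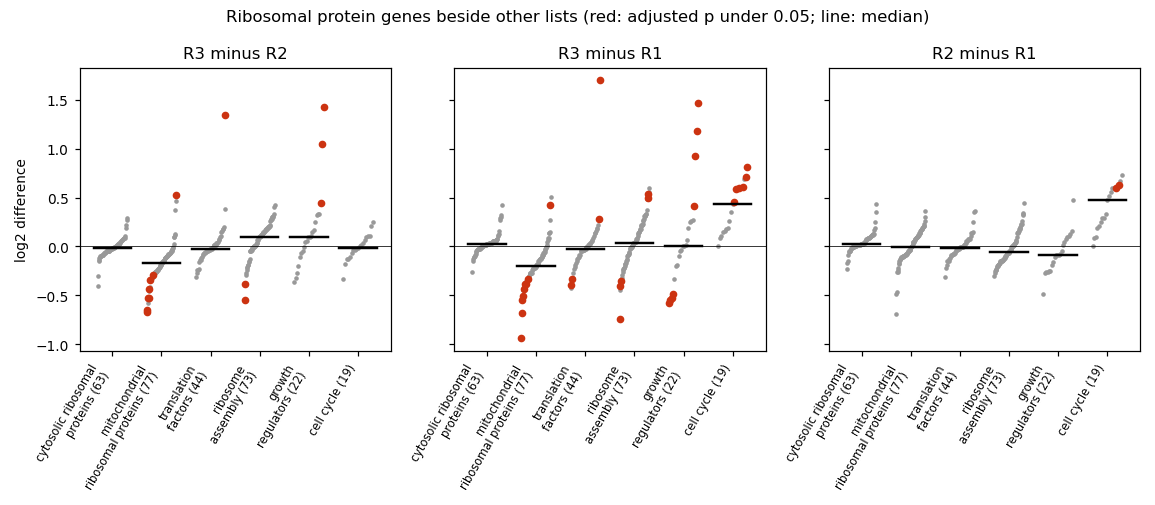
Log2 difference (y axis) of each gene in 6 lists (x axis, number of genes in brackets) for the 3 comparisons; red points have an adjusted p under 0.05 and black lines are medians. Cytosolic ribosomal proteins have no red point, and mitochondrial ribosomal proteins lie mostly below 0 in both comparisons with R3.

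R3 carried the markers that define it, while Flt3, by which R2 was sorted from R1, was not called between them. Flt3 measured 6.74, 7.78, and 7.17 in R1, 7.70, 8.02, and 8.01 in R2, and 10.99, 11.09, and 11.03 in R3, so that R1 and R2 overlapped. R2 minus R1 was 0.68 ± 0.22 (SE; adjusted p = 0.281, limma). All 8 pre-DC markers, Flt3 and Itgax (CD11c) among them, rose in R3 against R2 and against R1, and their summed intensity was 1916 to 2545 in R1, 2899 to 3240 in R2, and 13918 to 16129 in R3. Of the 6 measured monocyte markers, 4 fell in R3 against R1 (66.7%, beside 13.5% of all genes). In R3 against R2, 3 fell and 1 rose (66.7%, beside 9.55% of all genes). The one that rose was Cx3cr1 (by 0.63, adjusted p = 0.00993, limma). Of 8 progenitor markers, 3 rose in R3 against R1 (37.5%) and 1 in R3 against R2 (12.5%). In R2 against R1, limma called 1 marker in each of the pre-DC, progenitor, and monocyte lists (12.5%, 12.5%, and 16.7%, beside 0.391% of all genes). Clec9a rose by 1.87 (adjusted p = 0.0132), Myb rose by 0.61 (adjusted p = 0.039), and Itgam differed by -0.58 (adjusted p = 0.0459, all limma). Of the 8 pre-DC markers, 5 had an unadjusted p under 0.05 there (limma). B cell, T cell, and erythroid markers had 0 calls (limma) in any comparison, with 0 to 2 of a list at an unadjusted p under 0.05 and 0 called by the methods' t-test. Their summed intensities were at most 716, 276, and 260 on any array, and that of the B cell markers was higher in R3 (691 to 716) than in R1 (527 to 566) and R2 (504 to 597). The part of these markers in the values of the members was not tested. The 8 neutrophil markers also had 0 calls (0 to 1 at an unadjusted p under 0.05 and 0 by the methods' t-test). Their summed intensity varied between R3 arrays, from 1568 to 17420. S100a8 and S100a9 had the highest means of this list in each population, so the sum mainly follows them. Ly6g lay between 4.21 and 5.03 on the log2 scale on all arrays. R3 replicate 1 held the highest sum, and without it the median of the members in R3 against R2 was -0.01 with 0 called.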

How the data were processed

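The deposited values are linear intensities of 34760 probe sets on 9 arrays. According to the labels, 1 ng RNA per sample was amplified with the NuGEN Ovation Pico WTA v2 kit and labelled with biotin. Background correction, summarization, and normalization were not given in the sources used here. No detection or saturation flags came with the values, and the number of arrays limits the precision. Log2 intensities of the 19937 genes with a probe set of their own entered 1 limma model (limma 3.58.1 in R 4.3.3) of the 3 populations with 6 residual degrees of freedom. Adjustment (Benjamini-Hochberg) ran over all genes within each comparison. The fit was tested on simulated data. Of the probe sets, 1638 have the same value on all 3 arrays of a population, and 0 of the members' probe sets are among them.

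Members, lists, and named genes were chosen with earlier results of these data known. Named were the 3 brightest and 3 dimmest members, the paralogs, Rps19bp1, and members whose probe sets differed in call. From each other list, at most 4 called genes per comparison and direction were named. Members named for nearness to a call, Rpl38, the other stalk genes, and those of the t-test were chosen after their values were seen. Rpl32l and Rps23rg1 were in no class list.

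The labels give 3 shared dates, which pair the arrays. Deviations from the population means of arrays of 1 date correlated at -0.024 to 0.152 across genes. Fits with the date as a block, other scalings, other tests, and fewer arrays were run as alternatives.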

Additional observations from a re-analysis of the deposited data

How the results depend on the processing

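With the date as a replicate block (paired fit), 0 members were called in each comparison, and the medians were -0.02 in R3 against R2, 0.02 in R3 against R1, and 0.03 in R2 against R1. The count of called members moved from 0 to 1 with quantile normalization in R3 against R1 (Rpl14, adjusted p = 0.0498, limma) and to 2 with the methods' t-test in R3 against R2. Leaving out arrays gave 0 to 1 called in both comparisons with R3 (Rpl39l, Rpl14) and 0 to 0 in R2 against R1. The median in R3 against R2 moved from -0.020 to 0.0314 with centring on array medians, -7e-04 with quantile normalization, and -0.0443 with the mean over probe sets. It was -0.0067 with centring in R3 against R1. In R2 against R1 it was -0.0563 with centring and 0.0655 with the mean over probe sets. Leaving out arrays gave medians of -0.0337 to -0.0094, 0.0033 to 0.0375, and 0.005 to 0.0458 in these comparisons. The causes were not tested, beyond the fewer arrays of the left-out fits. The fall of probe set 10579839 passed in every alternative run. The rise of 10563114 missed the threshold with the methods' t-test (adjusted p = 0.0568 and 0.103), without replicate 1 or 2 in both comparisons, and without replicate 3 in R3 against R1 (0.0513). The rise of 10395737 over R2 missed it with only the 6 arrays compared (0.108) and with the methods' t-test (0.253), and its rise over R1 missed it without replicate 1 (0.108) or 2 (0.109). With 3 arrays a population, small changes were least detectable in the members of widest interval, such as Rpl12 (SE 0.29), Rps4l (0.18), and Rplp2 (0.17).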
